A study of Mus musculus with 20 samples.

Results

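Insulin acts on fat cells through a short chain of proteins. The hormone binds its receptor (Insr), a tyrosine kinase that phosphorylates the insulin receptor substrates (Irs1, Irs2 and, in rodents, Irs3). The substrates recruit PI3 kinase, which activates the kinase Akt. Akt2 is the form that drives the glucose transporter GLUT4, encoded by Slc2a4, to the surface of the adipocyte. Akt also holds the FoxO transcription factors (Foxo1, Foxo3) out of the nucleus and inhibits the kinase Gsk3b, a brake on glycogen synthase. When insulin is low, FoxO proteins can raise transcription of Insr and Irs2 in several tissues.

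The mRNA levels of these 10 genes were followed in visceral fat. The genes were chosen by name, with earlier results of these data known. Every spot of the array that carries one of the names was used. They have 22 probes among the 56605 probes of the array, and 10 of its 37074 gene names. All 22 probes passed the filter on dim probes (39390 probes and 25618 genes passed in all), and 21 of them were well above background on all 20 arrays. The exception, the Foxo3 probe at base 544 of its transcript, was above background on 18.

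The tissue was epididymal fat of male C57bl/6J mice of the F3 generation, with 1 array per mouse and separate mice as replicates. The Ref group (6 mice) came from the control lineage, whose diet held high-oleic sunflower oil, and ate the low-fat diet. The HFoleic group (6 mice) came from the same lineage and ate the high-fat, high-sucrose diet. The HFepa group (8 mice) came from the lineage given fish oil rich in EPA, an omega 3 fatty acid, over 3 generations, and also ate the high-fat, high-sucrose diet. No group of the EPA lineage on the low-fat diet was analysed here, so that a difference between lineages was measured under the obesogenic diet only. The mice had been fasted, and a level of mRNA says nothing of how active the encoded protein was.

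Levels are given as log2 intensity after quantile normalization between the arrays, and a difference of 1 on this scale is a 2-fold change. A gene with several probes is represented by its brightest probe in counts of genes. "Rose" and "fell" mark an adjusted p under 0.05, from limma with Benjamini-Hochberg adjustment over all 39390 probes. Adipocyte markers were bright in every mouse (Fabp4, a fatty acid carrier, had a mean level of 18.51), as the label of the tissue requires. Some mice stood apart. A list of testis genes was high in Ref mice 3 and 6, HFoleic mouse 5 and HFepa mouse 4, with list levels of 8.89, 9.12, 9.97 and 8.75 against at most 6.77 in the other mice. HFepa mouse 7 had a level of 10.35 on the brown or beige adipocyte list, against at most 8.64 elsewhere.

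Between HFoleic and Ref mice, 5 of the 10 genes differed. Insr, Irs1, Irs2, Akt2 and Foxo1 were lower in HFoleic mice, and none of the 10 rose by its brightest probe. Over all genes tested, 31.8% were called in this comparison (15.2% higher and 16.7% lower). Irs3, Akt1, Foxo3, Slc2a4 and Gsk3b did not pass the test by their brightest probe. The median log2 fold change of the 10 genes was -0.16, against -0.04 over all genes tested. None of the 10 genes passed in HFepa vs. Ref, where 2.46% of all genes did, and in HFepa vs. HFoleic none of the 10 passed, where 0 genes did.

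**Figure D1:**
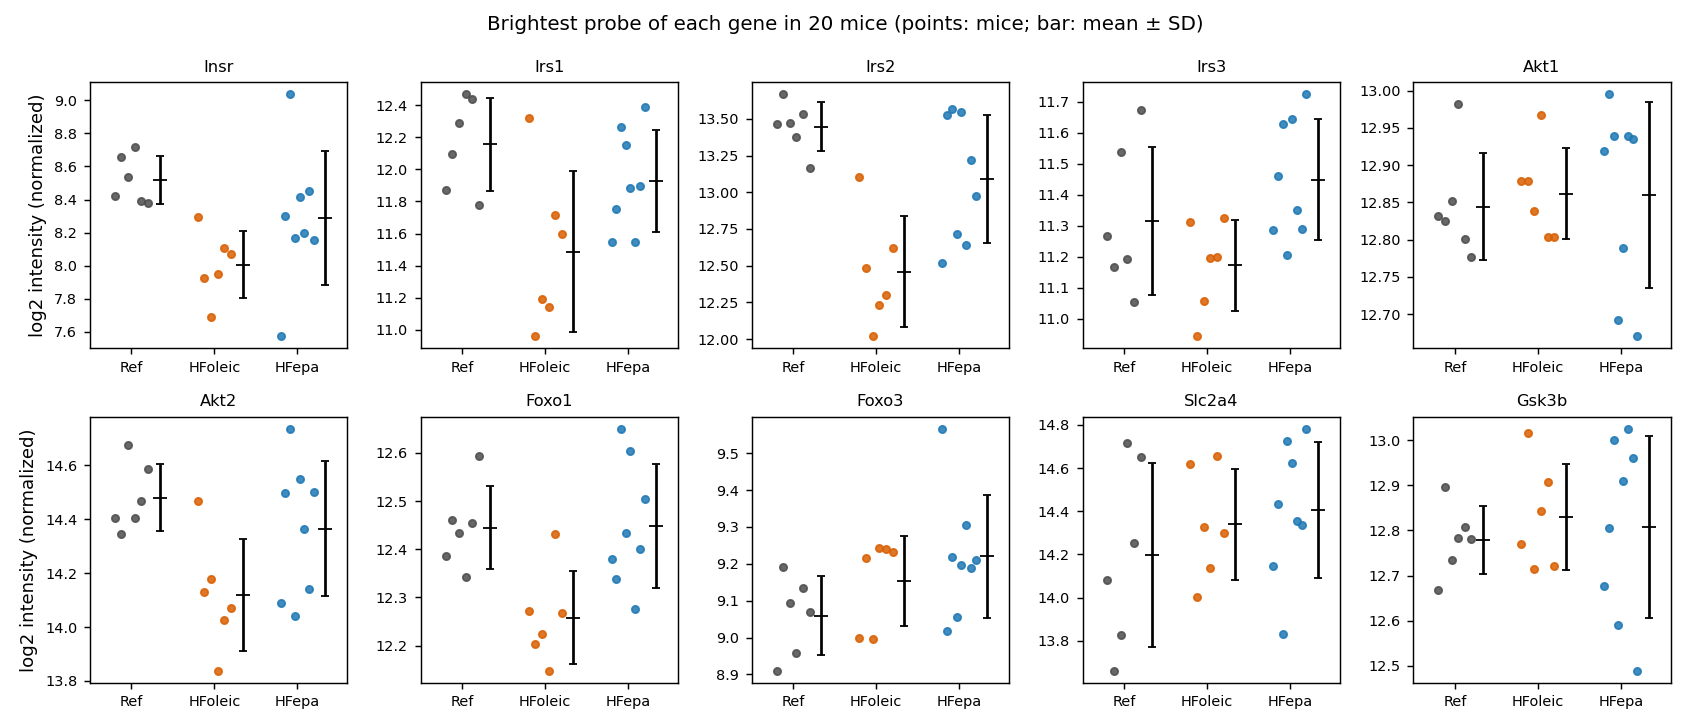
Normalized log2 intensity (y axis, a separate scale in each panel) of the brightest probe of each of the 10 genes in Ref, HFoleic and HFepa mice (x axis). Points are mice, and the bar at the right of each group is the mean ± SD over 6, 6 or 8 mice. In the panels of Insr and Irs2 every HFoleic mouse lies below every Ref mouse. The share of all genes tested that separate in this way was not counted.

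Irs2, a main substrate of the receptor in liver and fat, showed the largest change of the 10 genes. Its level ran from 13.16 to 13.67 in Ref mice (median 13.47), from 12.02 to 13.10 in HFoleic mice (median 12.39) and from 12.52 to 13.57 in HFepa mice (median 13.10). All 6 HFoleic mice lay below the lowest Ref mouse. How many of all genes tested separate in this way was not counted. The HFepa mice spread over both ranges, with mice 1, 4 and 6 at 12.52, 12.72 and 12.64 and mice 2, 3 and 5 at 13.52, 13.57 and 13.55. The mean was 13.45 ± 0.17 (SD, n = 6) in Ref, 12.46 ± 0.38 (n = 6) in HFoleic and 13.09 ± 0.43 (n = 8) in HFepa mice. Irs2 thus fell by 49.6% in HFoleic vs. Ref (log2 fold change -0.99, SE 0.19, limma adjusted p = 0.00127). HFepa differed from Ref by -0.36 (95% interval -0.74 to 0.02, limma adjusted p = 0.27) and from HFoleic by 0.63 (0.25 to 1.01, limma adjusted p = 0.12). In the order Ref, HFepa, HFoleic, neither pair of neighbours passed the test.

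Irs1, the other widely used substrate, ran from 11.78 to 12.47 in Ref mice (median 12.19), from 10.96 to 12.32 in HFoleic mice (median 11.39) and from 11.54 to 12.39 in HFepa mice (median 11.89). HFoleic mouse 1, at 12.32, lay within the Ref range, and the other 5 HFoleic mice lay below it. Irs1 fell by 37.1% in HFoleic vs. Ref (log2 fold change -0.67, SE 0.20, limma adjusted p = 0.0166). The difference was -0.23 in HFepa vs. Ref (limma adjusted p = 0.53) and 0.44 in HFepa vs. HFoleic (limma adjusted p = 0.198).

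The probes that read Irs1 and Irs2 are shown by the first 30 of their 60 bases, since each gene rests on a single probe. The annotation of the array places the Irs1 probe at base 9091 of NM_010570 (mm9, chr1:82229692-82229751, minus strand) and the Irs2 probe at base 3881 of NM_001081212 (mm9, chr8:11004490-11004549, minus strand). It does not say whether these bases are coding.
Irs1 probe: tacccccaattctgtctggtacttagaatt
Irs2 probe: tggagctttgccctctgccagcacctatgc

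The 250 bases before the start of both genes are given, as these are the receptor substrates that fell. The sequences are those of RefSeq on GRCm38.p6, for Irs1 at chr1:82291440-82291689 and for Irs2 at chr8:11008930-11009179, both on the minus strand. Capitals mark matches to the GC box (GGGCGG), the CCAAT box (CCAAT) and the E box (CACGTG), searched on both strands.
Irs1 promoter: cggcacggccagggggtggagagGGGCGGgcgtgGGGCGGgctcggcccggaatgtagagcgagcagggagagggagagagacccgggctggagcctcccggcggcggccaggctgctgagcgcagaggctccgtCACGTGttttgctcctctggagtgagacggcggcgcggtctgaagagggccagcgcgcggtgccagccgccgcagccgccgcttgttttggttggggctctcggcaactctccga
Irs2 promoter: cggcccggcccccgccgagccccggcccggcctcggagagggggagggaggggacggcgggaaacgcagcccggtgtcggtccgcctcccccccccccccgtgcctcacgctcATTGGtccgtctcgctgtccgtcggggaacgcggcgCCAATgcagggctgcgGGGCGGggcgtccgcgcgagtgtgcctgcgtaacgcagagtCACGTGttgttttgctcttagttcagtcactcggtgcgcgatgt

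Both windows hold 1 E box, at base -115 before the start of Irs1 and at base -44 before that of Irs2. This motif is present in 6.02% of the 32851 promoter windows of the same length. The GC box, found in both windows, is present in 32.7% of all windows, and the CCAAT box, found at 2 places before Irs2 and not before Irs1, in 33.8%. The FoxO core motif (GTAAACA, 3.17% of windows) and the core of the sterol response element (TCACCC, 13.8%) had no match in either. Windows of 8 of the 10 genes could be searched, and among them Irs1 and Irs2 were the only genes with the E box. Akt2 and Foxo1 also fell, and their windows hold no E box. Insr, which fell too, had no window to search. A match describes the letters and shows no bound factor.

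Insr has 2 probes, both on NM_010568, and both fell in HFoleic vs. Ref. At the probe at base 4745 the level ran from 8.38 to 8.72 in Ref mice (median 8.48), from 7.69 to 8.29 in HFoleic mice (median 8.01) and from 7.57 to 9.04 in HFepa mice (median 8.25). The Ref and HFoleic groups did not overlap, while HFepa mouse 1 was the lowest and HFepa mouse 3 the highest of all 20 mice. Such lack of overlap was not counted over all genes. The log2 fold change in HFoleic vs. Ref was -0.51 (SE 0.16, limma adjusted p = 0.0206), and the level fell by 29.8%. The probe at base 4038 gave -0.39 (SE 0.12, limma adjusted p = 0.0162), and there HFoleic mouse 1, at 6.62, reached into the Ref range. The probes gave -0.23 and -0.22 in HFepa vs. Ref (limma adjusted p = 0.411 and 0.27). They gave 0.28 and 0.17 in HFepa vs. HFoleic (limma adjusted p = 0.294 and 0.384).

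Akt2 fell in HFoleic vs. Ref at its brightest probe, at base 3095 of NM_001110208. The level ran from 14.34 to 14.67 in Ref mice (median 14.44), from 13.84 to 14.47 in HFoleic mice (median 14.10) and from 14.04 to 14.73 in HFepa mice (median 14.43). HFoleic mouse 1, at 14.47, lay within the Ref range and the other 5 lay below it. The log2 fold change was -0.36 (SE 0.12, limma adjusted p = 0.0231), and the other probes of Akt2 gave -0.39 (limma adjusted p = 0.0879) and -0.25 (limma adjusted p = 0.266). With median centring of the arrays in place of quantile normalization Akt2 did not pass (-0.32, limma adjusted p = 0.0558), nor did the average of its probes (-0.33, limma adjusted p = 0.0791). HFepa differed from Ref by -0.12 (limma adjusted p = 0.588) and from HFoleic by 0.25 (limma adjusted p = 0.209). Akt1, the form of Akt that is present in nearly all cells, showed 12.84 ± 0.07 (SD, n = 6), 12.86 ± 0.06 (n = 6) and 12.86 ± 0.12 (n = 8) in Ref, HFoleic and HFepa mice at its brightest probe. Its log2 fold change in HFoleic vs. Ref was 0.02 there (95% interval -0.11 to 0.15). The other Akt1 probes gave -0.12 and -0.29 in HFoleic vs. Ref (limma adjusted p = 0.208 and 0.12), so that the 3 probes differed in sign and none passed the test. From the brightest probe on, they gave 0.02, -0.09 and 0.06 in HFepa vs. Ref (limma adjusted p = 0.909, 0.488 and 0.835). The values in HFepa vs. HFoleic were -0.0018, 0.03 and 0.36 (limma adjusted p = 0.991, 0.82 and 0.151).

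Irs3, a substrate found in rodent adipocytes, did not pass the test in any comparison. Its level ran from 11.05 to 11.67 in Ref, from 10.94 to 11.32 in HFoleic and from 11.20 to 11.72 in HFepa mice. The groups overlapped, and the log2 differences were -0.14 in HFoleic vs. Ref (limma adjusted p = 0.357), 0.13 in HFepa vs. Ref (limma adjusted p = 0.498) and 0.28 in HFepa vs. HFoleic (limma adjusted p = 0.154).

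Foxo1 fell slightly in HFoleic vs. Ref at the probe at base 2466 of NM_019739. The level ran from 12.34 to 12.59 in Ref mice (median 12.44), from 12.15 to 12.43 in HFoleic mice (median 12.25) and from 12.28 to 12.65 in HFepa mice (median 12.42). HFoleic mouse 7, at 12.43, lay within the Ref range, and the other 5 HFoleic mice lay below it. The log2 fold change was -0.19 (SE 0.07, limma adjusted p = 0.0419), which is the smallest of the 5 called genes, and the probe at base 4809 gave -0.13 (limma adjusted p = 0.296). HFepa and Ref had nearly the same mean (12.45 for both), with a difference of 0.00 (95% interval -0.13 to 0.14). HFepa differed from HFoleic by 0.19 (limma adjusted p = 0.133). The Foxo1 call in HFoleic vs. Ref was lost with the scanner software's processed signal (-0.16, limma adjusted p = 0.11), with median centring (-0.12, limma adjusted p = 0.264), with no filter on dim probes (-0.19, limma adjusted p = 0.0546), with the mouse number as a block (the replicate block, -0.18, limma adjusted p = 0.101), with its probes averaged (-0.16, limma adjusted p = 0.0945), without the arrays with a high testis list and with the adipocyte or macrophage marker level as a covariate. It held under the other 9 of 17 alternatives. Foxo3, the related factor, gave 0.09, 0.00 and 0.14 at its 3 probes in HFoleic vs. Ref, and none passed (limma adjusted p = 0.413, 0.99 and 0.153). The same probes gave 0.16, 0.02 and -0.08 in HFepa vs. Ref (limma adjusted p = 0.24, 0.933 and 0.56). They gave 0.07, 0.02 and -0.22 in HFepa vs. HFoleic (limma adjusted p = 0.672, 0.948 and 0.128), so that no probe of Foxo3 passed in any comparison.

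**Figure D2:**
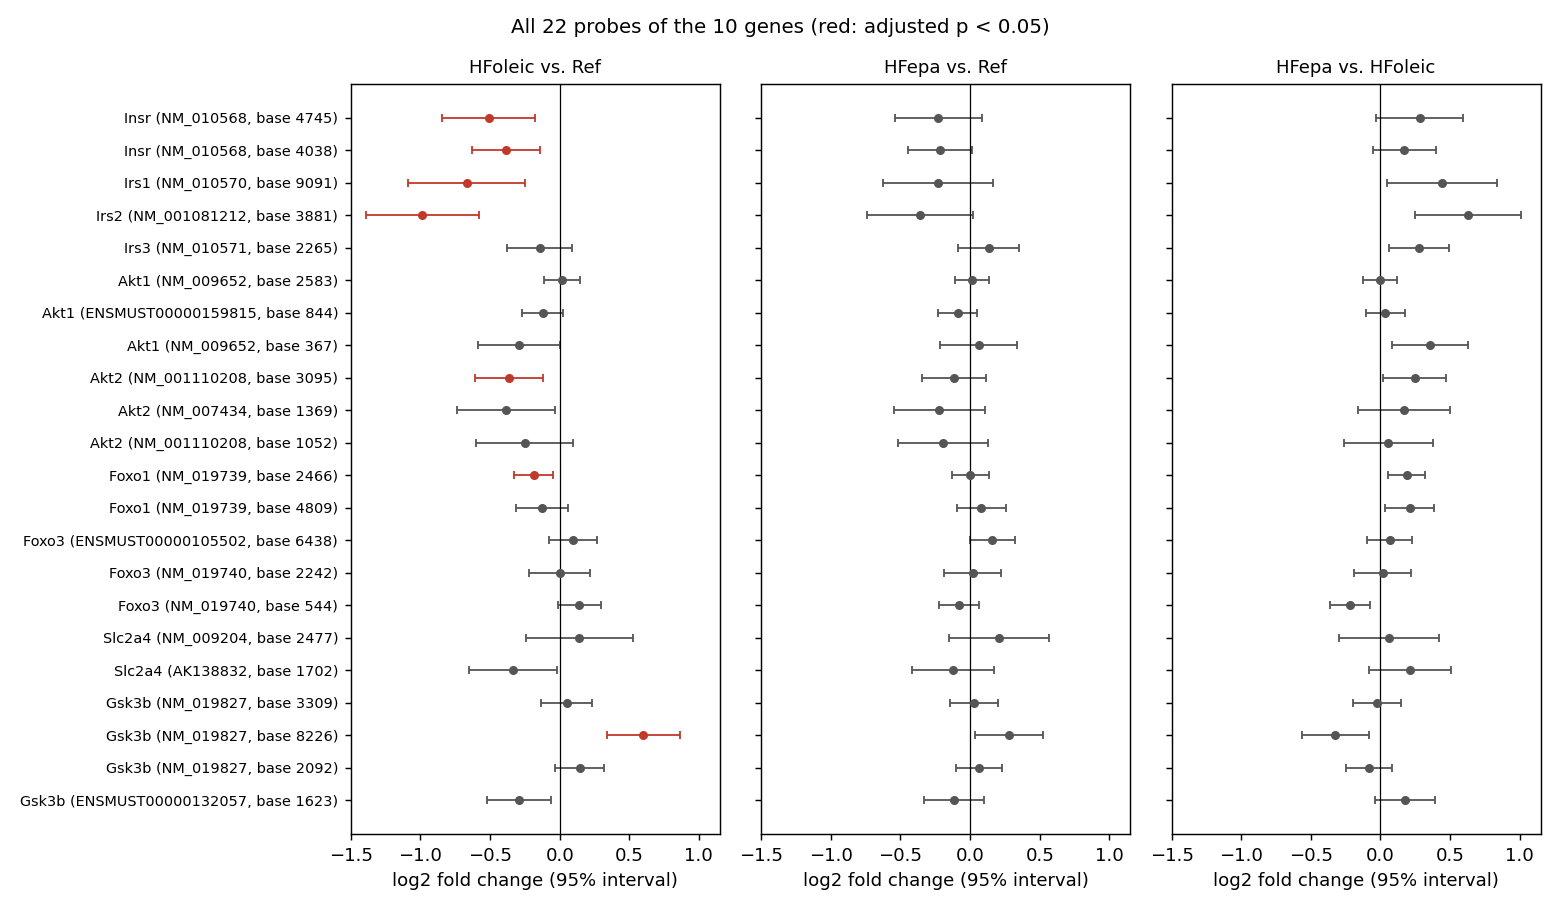
Log2 fold change (x axis) with its 95% interval for all 22 probes (y axis, gene with the transcript and the base in it) in the 3 comparisons, with probes of adjusted p under 0.05 in red. In HFoleic vs. Ref 7 probes are red, 6 of them below 0, and in the other comparisons none is.

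Slc2a4, which encodes the insulin-regulated transporter GLUT4, did not pass the test in any comparison. At its brightest probe, at base 2477 of NM_009204, the level ran from 13.66 to 14.71 in Ref mice (median 14.17), from 14.01 to 14.66 in HFoleic mice (median 14.31) and from 13.83 to 14.78 in HFepa mice (median 14.40). The whole HFoleic range lay within the Ref range. The differences were 0.14 in HFoleic vs. Ref (95% interval -0.24 to 0.53, limma adjusted p = 0.601), 0.21 in HFepa vs. Ref (-0.15 to 0.56, limma adjusted p = 0.533) and 0.06 in HFepa vs. HFoleic (-0.29 to 0.42, limma adjusted p = 0.877). The second probe, placed on the cDNA AK138832 (mm9, chr11:69757309-69757368), gave -0.34 in HFoleic vs. Ref (95% interval -0.65 to -0.02, limma adjusted p = 0.0981). It gave -0.12 in HFepa vs. Ref (limma adjusted p = 0.666) and 0.21 in HFepa vs. HFoleic (limma adjusted p = 0.411). The probes of Slc2a4 thus had opposite signs in both comparisons with Ref, and neither passed the test in any comparison.

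Gsk3b gave a different picture from probe to probe. At its brightest probe, at base 3309 of NM_019827, the mean was 12.78 ± 0.08 (SD, n = 6) in Ref, 12.83 ± 0.12 (n = 6) in HFoleic and 12.81 ± 0.20 (n = 8) in HFepa mice, and the log2 fold change in HFoleic vs. Ref was 0.05 (95% interval -0.13 to 0.23). The probe at base 8226 of the same transcript rose. There the level ran from 9.49 to 10.14 in Ref mice (median 9.85), from 9.996 to 10.66 in HFoleic mice (median 10.48) and from 9.79 to 10.35 in HFepa mice (median 10.14). HFoleic mouse 1, at 9.996, lay within the Ref range, and the other 5 HFoleic mice lay above every mouse of the Ref and HFepa groups. The log2 fold change was 0.60 in HFoleic vs. Ref (SE 0.12, limma adjusted p = 0.0017), 0.28 in HFepa vs. Ref (limma adjusted p = 0.18) and -0.32 in HFepa vs. HFoleic (limma adjusted p = 0.146). The last difference passed with array weights (-0.36, limma adjusted p = 0.0291) and without HFoleic mouse 1 (-0.41, limma adjusted p = 0.0463). The rise in HFoleic vs. Ref passed in 14 of 16 alternatives, with values from 0.32 to 0.65. It did not pass with the adipocyte or the macrophage marker level as a covariate.

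The other 2 probes of Gsk3b gave 0.14 (at base 2092, limma adjusted p = 0.212) and -0.29 (on ENSMUST00000132057, limma adjusted p = 0.0526) in HFoleic vs. Ref. The probes at bases 3309 and 8226 are named by the array for the same transcript, lie at mm9 chr16:38241177-38241236 and chr16:38246094-38246153 on the plus strand, and are shown because their changes differ. A test of that difference was not run.
Gsk3b base 3309: tgtgtacttatccttaggatttgaagactt
Gsk3b base 8226: ctcattgtcaggcctaaaggttagatataa

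**Figure D3:**
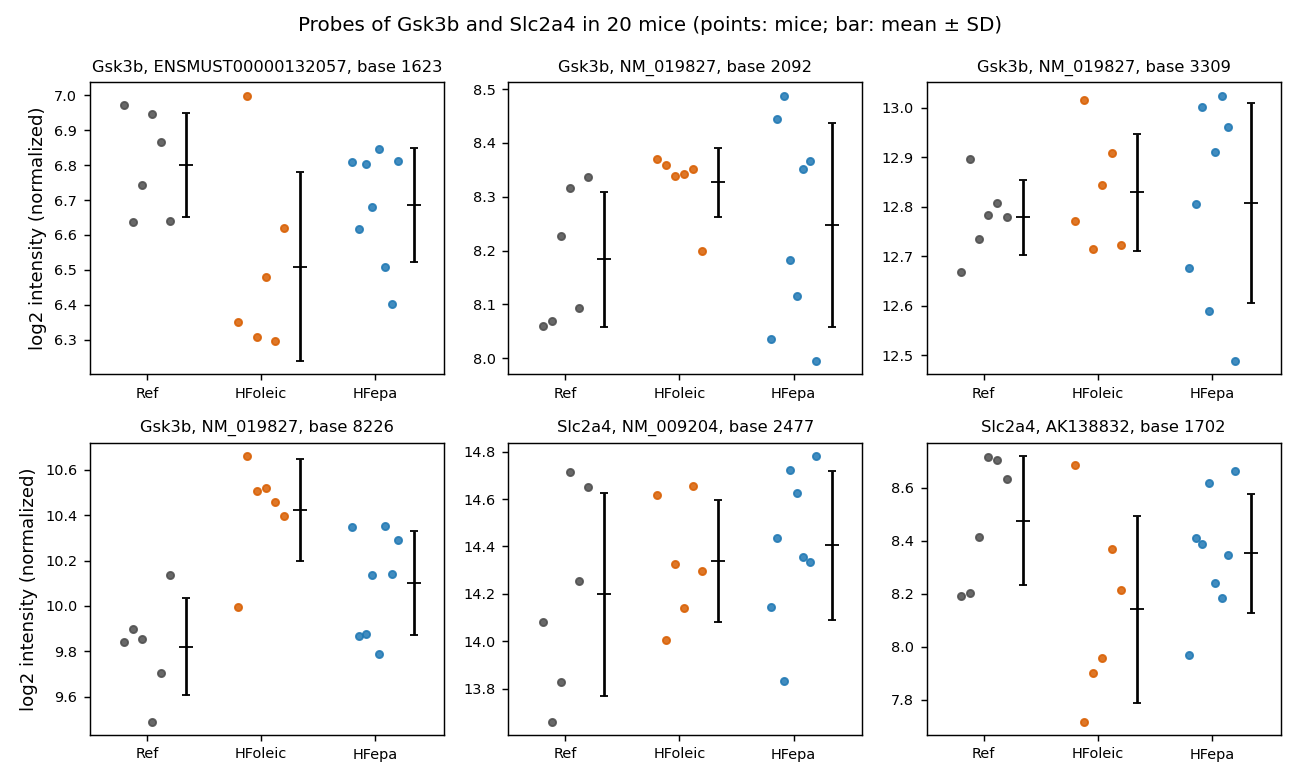
Normalized log2 intensity (y axis, a separate scale in each panel) of the 4 probes of Gsk3b and the 2 probes of Slc2a4 in Ref, HFoleic and HFepa mice (x axis), with points for mice and bars for the mean ± SD. At base 8226 of Gsk3b, 5 of 6 HFoleic mice lie above all Ref mice, while at base 3309 the groups overlap.

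Over the 22 probes, 7 were called in HFoleic vs. Ref, 1 higher and 6 lower, and 30.8% of all probes tested were called there (15.2% higher and 15.6% lower). In HFepa vs. Ref 2 of 22 probes, of Foxo3 and Gsk3b, had p under 0.05 in limma before adjustment, and none after it, against 20.7% and 2.26% of all probes. In HFepa vs. HFoleic 9 of 22 probes had p under 0.05 in limma before adjustment (7 higher and 2 lower in HFepa), against 20.6% of all probes (10.3% higher and 10.2% lower). None of them passed after adjustment, where the smallest adjusted p was 0.12 and 0.00254% of all probes passed. By their brightest probes 5 genes had p under 0.05 before adjustment (Irs1, Irs2, Irs3, Akt2 and Foxo1), with levels above those of HFoleic in each case, against 20.8% of all genes (10.8% above HFoleic). HFoleic vs. Ref and HFepa vs. Ref use the same Ref arrays, and HFepa vs. HFoleic the same HFoleic arrays, so their values are not independent.

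Marker genes of several cell types differed in level between the groups. Fewer cells of a type and less RNA per cell cannot be told apart in whole tissue. The adipocyte list (10 genes, Fabp4 the brightest) had a mean level of 16.09 ± 0.10 (SD, n = 6) in Ref, 15.82 ± 0.21 (n = 6) in HFoleic and 15.98 ± 0.15 (n = 8) in HFepa mice. In HFoleic vs. Ref 5 of its 10 genes passed, namely Lep, which rose, and Lipe, Cfd, Retn and Adrb3, which fell. Over all genes tested 31.8% passed there (15.2% higher and 16.7% lower). The macrophage list (10 genes, Lyz2 the brightest) stood at 11.67 ± 0.16, 12.70 ± 0.37 and 12.06 ± 0.61, and 7 of its genes rose and 1, Cd163, fell in HFoleic vs. Ref. Its summed intensity ran from 67410 to 102200 in Ref mice, from 157200 to 318900 in HFoleic mice and from 73530 to 324400 in HFepa mice. The lists of lipid-associated macrophages (7 of 8 genes rose, with Lpl, which adipocytes also make, the brightest) and of progenitors and fibroblasts (4 of 8 rose, Dcn the brightest) were also higher in HFoleic mice. HFepa mice 1 and 6, low in Irs2, had macrophage list levels of 13.13 and 12.82 and adipocyte list levels of 15.67 and 15.85. HFepa mouse 4, also low in Irs2, had 11.78 and 16.02. HFoleic mouse 1, the highest of its group in Irs2, had 12.13 and 16.15. A link was not tested.

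With the adipocyte list level as a covariate, Irs2 gave -0.66 (limma adjusted p = 0.0543) and none of the 10 genes passed in HFoleic vs. Ref, where 2691 probes did. With the macrophage list level as a covariate, Irs2 gave -0.53 (limma adjusted p = 0.316), none of the 10 genes passed and 1 probe of all did. All HFoleic mice lay above all Ref mice on the macrophage list, so that this list and the group cannot be told apart in HFoleic vs. Ref.

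**Figure D4:**
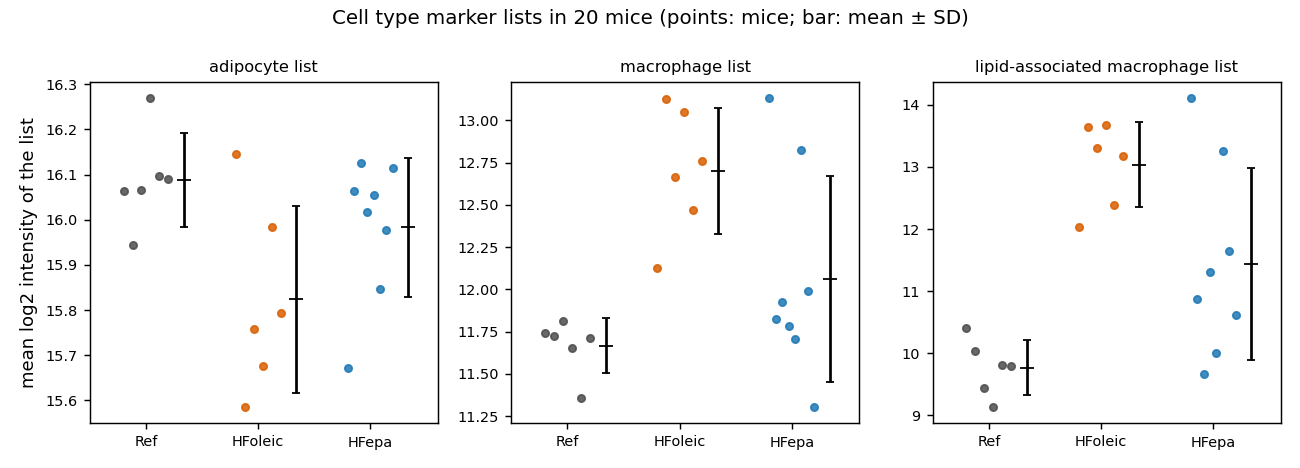
Mean normalized log2 intensity (y axis, a separate scale in each panel) of the adipocyte, macrophage and lipid-associated macrophage lists in Ref, HFoleic and HFepa mice (x axis), with points for mice and bars for the mean ± SD. On both macrophage lists the HFoleic mice lie above the Ref mice, and HFepa mice 1 and 6 lie apart from the other HFepa mice.

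The falls were seen on each slide. On slides 1, 2 and 3 the difference of HFoleic and Ref means was -0.92, -0.79 and -1.34 for Irs2 and -0.44, -0.62 and -0.56 for Insr, although slide 2 held a single HFoleic mouse. For Irs1 the values were -0.30, -1.16 and -0.91. With the slide as a block, the same 5 genes passed, with Irs2 at -1.02 (limma adjusted p = 0.00136).

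The calls differed in how far they rested on single mice. Irs1 and Irs2 passed in HFoleic vs. Ref with any 1 of the 20 arrays left out. Insr missed the threshold without HFoleic mouse 5 (limma adjusted p = 0.052), and Akt2 without HFoleic mouse 6 (0.0633) or Ref mouse 4 (0.0555). Foxo1 missed it in 9 of the 20 fits, with adjusted p of up to 0.0983. Without the 4 arrays with a high testis list, which left 4 Ref, 5 HFoleic and 7 HFepa mice, Irs2 (-0.82, limma adjusted p = 0.0258) and Akt2 (-0.41, limma adjusted p = 0.049) passed, while Insr (-0.44, 0.122), Irs1 (-0.55, 0.127) and Foxo1 (-0.17, 0.175) did not. Between HFepa and HFoleic, Irs2 passed without HFoleic mouse 1 (0.76, limma adjusted p = 0.0343) or HFepa mouse 1 (0.71, 0.0284), and Irs1 without HFoleic mouse 1 (0.61, 0.0476).

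The wider pathway was read in 9 lists of 141 genes, of which 140 could be tested and Irs4 could not. In HFoleic vs. Ref 55 of them passed (39.3%), 22 higher and 33 lower, against 31.8% of all genes tested. Only Pik3cb and Gbe1 passed in HFepa vs. Ref, both lower, against 1.42% of all genes called lower there. None passed in HFepa vs. HFoleic. Without the 4 arrays with a high testis list, Pik3cb (-0.63, limma adjusted p = 0.159) and Gbe1 (-0.81, limma adjusted p = 0.15) did not pass in HFepa vs. Ref. With the replicate block they did not pass either (-0.62 and -0.70, limma adjusted p = 0.0995 and 0.114). With 1 array left out, Pik3cb passed in 14 of 20 fits and Gbe1 in 5. Over the 17 alternatives, Pik3cb passed in 12 and Gbe1 in 8.

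Changes with their errors are given for 26 of the pathway genes that passed in HFoleic vs. Ref. With the macrophage list level as a covariate all 26 calls were lost, and with the adipocyte list level 18 of them were. Over all probes, 12147 calls in HFoleic vs. Ref became 1 with the macrophage list and 2691 with the adipocyte list. The changes of the named genes moved to different degrees. With the macrophage list, Inpp5d went from 0.99 to 0.046 (limma adjusted p = 0.884) and Sesn3 from 0.96 to 0.90 (limma adjusted p = 0.188). Without the arrays with a high testis list Trib3 (-0.64, limma adjusted p = 0.0678), Socs1 (-0.48, limma adjusted p = 0.055) and Nfia (-0.29, limma adjusted p = 0.157) did not pass. Eif4ebp1 and Nfia did not pass with the replicate block (-0.37 and -0.42, limma adjusted p = 0.0927 and 0.0863), and Rptor did not with its probes averaged (0.11, limma adjusted p = 0.177).

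**Figure D5:**
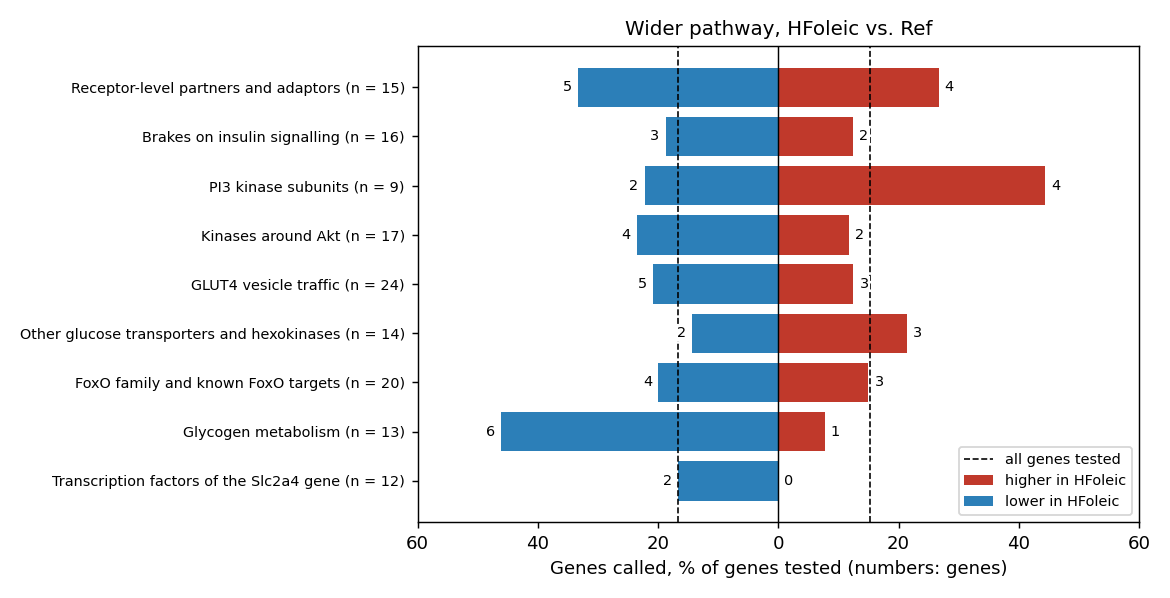
Share of the tested genes of each pathway list (y axis, n is the number tested) that were called higher (right, red) or lower (left, blue) in HFoleic vs. Ref (x axis, % of genes tested), with the number of genes at each bar. Dashed lines mark the shares over all genes tested, 15.2% higher and 16.7% lower, and the glycogen list has 6 genes lower and 1 higher.

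Around the receptor, 4 partners and adaptors rose and 5 fell of the 15 tested (60%). Over all genes tested 31.8% were called in HFoleic vs. Ref, 15.2% higher and 16.7% lower. Grb2, an adaptor that leads to the Ras pathway, rose (log2 fold change 0.54, SE 0.12, limma adjusted p = 0.00241). Cblb, a ubiquitin ligase, fell by 0.48 (SE 0.10), and Sh2b2, also known as APS, which binds the activated receptor, fell by 0.79 (SE 0.19). Of 16 brakes on the pathway 2 rose and 3 fell (31.2%, near the share over all genes). Inpp5d, the phosphatase SHIP1, best known from blood cells, rose by 0.99 (SE 0.23, limma adjusted p = 0.00322). Trib3, a pseudokinase that binds Akt, fell by 0.88 (SE 0.21), and Socs1, a suppressor of cytokine signaling that can also target the receptor substrates, fell by 0.48 (SE 0.14).

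Among the 9 subunits of PI3 kinase, 4 rose and 2 fell in HFoleic vs. Ref (66.7%, against 31.8% of all genes tested). The 4 that rose (Pik3cd, Pik3cg, Pik3r5 and Pik3r6) are best known from leukocytes. In the same comparison 7 of the 10 macrophage markers were called higher, against 15.2% of all genes tested. The cell type behind these rises was not tested. Pik3r5 rose by 1.62 (SE 0.33, limma adjusted p = 0.00156) and Pik3cg by 0.84 (SE 0.18). With the macrophage list level as a covariate they gave 0.29 (limma adjusted p = 0.467) and 0.13 (limma adjusted p = 0.647). Pik3cb, the widely expressed p110-beta catalytic subunit, fell by 0.84 (SE 0.15, limma adjusted p = 0.000702). With the same covariate it gave -0.53 (limma adjusted p = 0.225). Pik3cb was also lower in HFepa than in Ref mice, by a log2 fold change of -0.63 (limma adjusted p = 0.0281). Of 17 kinases and partners around Akt, 2 rose and 4 fell (35.3%, near the share over all genes). Sgk1, a kinase related to Akt, fell by 1.21 (SE 0.25, limma adjusted p = 0.00165), Eif4ebp1, a target of mTORC1 that restrains translation, fell by 0.38 (SE 0.12), and Rptor, a subunit of mTORC1, rose by 0.29 (SE 0.08).

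Of 24 genes of GLUT4 vesicle traffic, 3 rose and 5 fell (33.3%, against 31.8% of all genes tested). Vamp2, the vesicle SNARE of GLUT4 vesicles, fell by 0.63 (SE 0.11, limma adjusted p = 0.00074). Trip10, also known as CIP4, a partner of the GTPase TC10, fell by 0.51 (SE 0.09), and Rapgef1, a guanine nucleotide exchange factor, fell by 0.47 (SE 0.09). Of 14 other glucose transporters and hexokinases, 3 rose and 2 fell (35.7%). Slc2a3, which encodes GLUT3, fell by 1.33 (SE 0.27, limma adjusted p = 0.00152), whereas Slc2a10 rose by 0.79 (SE 0.11, limma adjusted p = 0.000294). Hk3, a hexokinase of white blood cells, rose by 2.83 (SE 0.53, limma adjusted p = 0.001). Of 12 genes listed as regulators of the Slc2a4 gene, none rose and 2 fell (16.7%, the same share as over all genes called lower). These were Ebf1 (-0.64, SE 0.13, limma adjusted p = 0.00158) and Nfia (-0.41, SE 0.12), while Thra gave -0.30 (limma adjusted p = 0.0585).

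Glycogen metabolism had 6 genes lower and 1 higher of 13 tested (53.8%, against 31.8% of all genes tested). Gys1, the synthase that Gsk3b inhibits, Gbe1, the branching enzyme, Ugp2, which makes UDP-glucose, Pygl, the phosphorylase, and the phosphatase subunits Ppp1r3b and Ppp1r3c fell. Ugp2 fell by 0.37 (SE 0.08, limma adjusted p = 0.00242) and Gbe1 by 0.72 (SE 0.18, limma adjusted p = 0.00563). Gbe1 was also lower in HFepa than in Ref mice (-0.67, limma adjusted p = 0.0422), and together with Pik3cb it made up the 2 genes called there. Ppp1r3d rose by 0.63 (SE 0.13, limma adjusted p = 0.00169). Of 20 genes of the FoxO family and known FoxO targets, 3 rose and 4 fell (35%, near the share over all genes). Pck1, the glyceroneogenic enzyme PEPCK, fell by 1.16 (SE 0.23, limma adjusted p = 0.0015), whereas Sesn3 and Gadd45a, genes of the stress response, rose by 0.96 (SE 0.20) and 1.09 (SE 0.25).

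Genes that moved like the members across the 20 arrays were named by Pearson r of their brightest probes over 25602 genes, as a description. The points share the groups and come from whole tissue. For Irs2 the closest were Sesn2 (r = 0.95), Tns2 (r = 0.95) and 2210016H18Rik (r = 0.94). For Irs1 they were Slc43a1 (r = 0.94), Car5b (r = 0.93) and Fign (r = 0.93), and for Slc2a4 they were Slc1a5 (r = 0.90), Cav2 (r = 0.88) and Prkar2b (r = 0.85). For Insr the closest with a gene symbol was Acer2 (r = 0.92).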

How the data were processed

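RNA of 20 mice was hybridized to Agilent 1-colour arrays on 3 slides. The authors extracted spot intensities on a linear scale with Agilent Feature Extraction 10.10.1.1, per the file headers, and the deposited median intensity is neither background-corrected nor normalized. A second deposited file holds log2 intensities that the authors filtered and quantile normalized, and it served as an alternative only.

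Control spots were left out and spots marked as non-uniform or population outliers were set missing. A probe was tested when well above background on at least 6 arrays (66.1% to 71.9% of the spots of an array were, none saturated). The log2 of the median intensity was quantile normalized between arrays and averaged over the spots of a probe. A mean per group was fitted to all 20 arrays with limma 3.58.1 in R 4.3.3 (lmFit, contrasts, eBayes, Benjamini-Hochberg), after a check on simulated data. Plots were drawn with matplotlib 3.10.9. The number of mice limits the precision.

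Named genes were the 10 members with all probes, the 3 genes of smallest p in each pathway list, those called in either HFepa comparison, the brightest gene of each marker list, and the 3 genes most alike to Insr, Irs1, Irs2 and Slc2a4. Other called genes are named in counts, chosen after their values were seen. The members and the lists were chosen with earlier results of these data known. Gene names and mm9 coordinates are those of the array files, all 10 members are symbols in the RefSeq table, and promoter sequences are from RefSeq (GRCm38.p6). Same-numbered mice of different groups deviated from their group means with correlations between -0.59 and 0.56, so that numbers were not taken to pair mice.

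The alternatives were other signals and scalings, other filters, blocks, array weights, an intensity trend, a fit to the compared groups only, list levels as covariates, the mean over the probes of each gene, and each array left out. Others, without arrays that stood apart on the testis or brown adipocyte lists, were chosen after seeing the data.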

Additional observations from a re-analysis of the deposited data

Results flagged for a closer look

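In 12 of the 105 groups of values looked at (the probes of the 10 genes and the marker lists, by group), the highest or lowest mouse stood apart by Dixon's rule at the 95% level. By chance about 5% of groups would.

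Among the probes, Akt1 at base 2583 was highest among Ref mice in mouse 5 (12.98, the next Ref mouse 12.85). Among HFoleic mice, Akt1 on ENSMUST00000159815 and Akt2 at base 1052 were highest in mouse 1, at 8.51 (next 8.38) and 9.31 (next 8.68). Gsk3b at base 2092 was lowest among HFoleic mice in mouse 8, at 8.20 (next 8.34). None of these 4 probes was called in any comparison.

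Among the marker lists, the macrophage list was lowest among Ref mice in mouse 6 (11.36), the B cell list was lowest among HFoleic mice in mouse 4 (7.08), and the skeletal muscle list was highest among them in mouse 1 (8.55). Within its group, HFoleic mouse 5 stood out on the testis list (9.97) and the epididymis list (8.48). Among HFepa mice, mouse 7 stood out on the brown or beige adipocyte list (10.35), mouse 4 on the testis list (8.75) and mouse 2 on the epididymis list (9.50). Ref mice 3 and 6 were also high on the epididymis list (10.27 and 9.07), although the rule did not mark them. The part of these mice in the results was measured only by leaving them out.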

How the results depend on the processing

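Insr, Irs1, Irs2, Akt2 and Foxo1 were lower in HFoleic than in Ref mice under all 17 alternatives, and Irs2 passed the test in all but the fits with the adipocyte or macrophage list as a covariate. Of the 10 genes, 5 passed in HFoleic vs. Ref; the count was 3 with median centring, 3 with the mean over all probes, 2 with the replicate block, 2 without the arrays with a high testis list, and 0 with either list as a covariate. With each array left out it ran from 3 to 5, with 3 without HFoleic mouse 5, HFoleic mouse 6 or Ref mouse 4. No alternative called any of the 10 in HFepa vs. Ref. Between HFepa and HFoleic, array weights called 1 by its brightest probe, Irs2 (limma adjusted p = 0.0205), and the dimmer Gsk3b probe at base 8226 (-0.36, limma adjusted p = 0.0291), and 0 to 2 of the 10 passed with an array left out. The cause was not tested.

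Over all probes, 12147 passed in HFoleic vs. Ref, and 7873 did with the replicate block, 6728 without the arrays with a high testis list, 2691 with the adipocyte list and 1 with the macrophage list as a covariate (9833 to 13175 with an array left out). Between HFepa and Ref, 892 passed, and 1477 did with array weights, 583 with no filter on dim probes, 575 with median centring, 427 without HFepa mouse 7, 155 with the macrophage list as a covariate, 140 in a fit to the compared groups only, 25 with the replicate block and 0 without the arrays with a high testis list. With an array left out this count ran from 130 (without Ref mouse 6) to 2513 (without HFepa mouse 3). Between HFepa and HFoleic, 1 probe passed, and 4527 did with array weights, 1297 with the slide as a block, and 0 with the processed signal, normexp, median centring, the replicate block, the compared groups only, either list as a covariate, or without the arrays that stood apart. With an array left out it ran from 0 to 2867 (2867 without HFepa mouse 1, 1663 without HFoleic mouse 1).

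The labels do not say whether the replicate numbers pair mice, and so few same-numbered pairs cannot decide it. In HFoleic vs. Ref 2 of 4 such pairs had a correlation above 0.1. The replicate block moved the members called to 2, Irs1 (-0.79, limma adjusted p = 0.0401) and Irs2 (-0.88, limma adjusted p = 0.0219).

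Changes of sign were confined, among the 10 genes, to differences that passed no test. In HFoleic vs. Ref, Slc2a4 turned to -0.013 with the replicate block and -0.10 with the mean of all probes; with the adipocyte list as a covariate Akt1 turned to -0.0049 and Foxo3 to -0.047; with the macrophage list Akt1 turned to -0.087, Foxo3 to -0.11, Gsk3b to -0.051 and Irs3 to 0.014; with the mean of all probes Akt1 turned to -0.13. Between HFepa and Ref, Foxo1 turned to -0.0066 with array weights; with the macrophage list Irs1 turned to 0.011, Akt1 to -0.024 and Gsk3b to -0.010; Akt1 turned to -0.0037 with the mean of all probes. Between HFepa and HFoleic, Akt1 turned to 0.0021 with marked spots kept, 0.0097 with array weights, 0.012 with the adipocyte list, 0.063 with the macrophage list, 0.13 with the mean of all probes and 0.017 without the arrays with a high testis list. Slc2a4 turned to -0.13 with the adipocyte and -0.17 with the macrophage list, Gsk3b to 0.0074 with array weights and 0.041 with the macrophage list, and Foxo3 to -0.046 with the mean of all probes. With an array left out, Akt1 ran from -0.0037 to 0.045 in HFoleic vs. Ref, from -0.0038 to 0.043 in HFepa vs. Ref and from -0.021 to 0.025 in HFepa vs. HFoleic; Foxo1 and Gsk3b ran from -0.026 to 0.033 and from -0.0024 to 0.074 in HFepa vs. Ref; Slc2a4 and Gsk3b ran from -0.0031 to 0.15 and from -0.053 to 0.024 in HFepa vs. HFoleic.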

Other observations

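Of the marker lists not described above, the endothelial list (7 genes, Cldn5 the brightest) had mean levels of 11.89 ± 0.14 (SD, n = 6), 11.81 ± 0.18 (n = 6) and 11.97 ± 0.20 (n = 8) in Ref, HFoleic and HFepa mice, and none of its genes passed in any comparison. The T cell list (8 genes, Cd2 the brightest) stood at 8.32, 8.32 and 8.33, with Cd2 alone called, higher in HFoleic than in Ref mice. The B cell list (5 genes, Cd79b the brightest) stood at 7.68, 7.43 and 7.52, and the mesothelial list (6 genes, Msln the brightest) at 8.49, 8.06 and 8.51, with none of their genes called. Of the brown or beige list (6 genes, Cox8b the brightest), Dio2 rose and Ppargc1a fell in HFoleic vs. Ref. Of the liver list (6 genes, Cyp2e1, which fat also makes, the brightest), Cyp2e1 fell. The skeletal muscle list, in which Ckm could not be tested, stood at 8.28, 8.24 and 8.26, and Myh1 rose. On the testis list 3 of 6 genes could be tested and on the epididymis list 2 of 6, and none was called.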
